A study of Danio rerio with 6 samples.

Results

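Genes for 10 enzymes of peroxide and superoxide defence were followed in zebrafish that lack an intact *ikzf1* gene and in their wild-type siblings. The study describes both as larvae. They were picked by gene name, *prdx1*, *prdx2*, *prdx3*, *prdx6*, *cat*, *sod1*, *sod2*, *gpx1a*, *gpx4a* and *gsr*, which are 10 of the 32105 genes in the count table. All 10 were found and all 10 passed the filter on low counts, which left 17828 genes to test. A reference list of symbols gives *prdx2* (ENSDARG00000025350) the symbol PRDX1, whereas the study's own gene names call it *prdx2*, and the study's name was used. The RNA came from 3 homozygous IT325 mutants (allele t24980) and 3 wild-type siblings, each labelled as whole body at 5 days post fertilization on a mixture of wild-type strains. Per the study's methods each library is 1 fish, and the IT325 allele is a chemically induced nonsense mutation whose protein keeps the DNA-binding zinc fingers but lacks the C-terminal ones that bind partner proteins. Polyadenylated RNA was sequenced and counted per gene.

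Superoxide dismutases turn superoxide into hydrogen peroxide, and catalase, the peroxiredoxins and the glutathione peroxidases then remove the peroxide. Peroxiredoxins draw their electrons from thioredoxin and glutathione peroxidases from glutathione, which glutathione reductase regenerates with NADPH. Red cells carry oxygen bound to haem iron and form superoxide when haemoglobin autoxidizes. In mammals peroxiredoxin 2, catalase, glutathione peroxidase 1 and copper-zinc superoxide dismutase are abundant red cell proteins, and *prdx2*, *cat*, *gpx1a* and *sod1* are called the red cell enzymes here. The other 6 are called general enzymes, as most cell types carry them. Fish red cells keep their nucleus when mature.

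The libraries held 37390073 to 53279243 counts, so that 3 counts, the limit which a count of 0 allows, correspond to 0.0563 to 0.0802 counts per 1000000 (CPM). The mutated gene *ikzf1* was at 1073, 1730 and 1145 CPM in mutants, against 282, 321 and 311 CPM in wild type, a log2 change of 2.21 (SE 0.174, adjusted p 1.17e-04 by edgeR). The mutation changes a base and a count per gene does not show it. Markers of several organs were close to 0 in both groups, although the labels give the whole body. The summed level of 13 skeletal muscle genes was 3.17 to 5.16 CPM in mutants and 3.998 to 6.58 CPM in wild type. That of 7 neural genes was 0.736 to 9.0 CPM in mutants and 1.24 to 17.7 CPM in wild type. The sums of 4 epidermal, 6 intestinal and 8 liver genes stayed between 2.58 and 20.2 CPM in mutants and between 5.74 and 16.7 CPM in wild type. Only 5 exocrine pancreas genes had larger sums among these organs, at 43.2 to 59.2 CPM in mutants and 32.7 to 43.9 CPM in wild type. Most of these sums came from the gene CPA1, at 36.6 to 52.5 CPM in mutants and 26.1 to 36.5 CPM in wild type. The 9 neutrophil genes summed to 37656 to 43153 CPM in mutants and to 26951 to 28979 CPM in wild type. The markers thus go against the label of whole body, and the tissue behind the libraries is uncertain. Each CPM is a share of RNA in which blood cell transcripts were abundant, and may not be the share in a whole larva.

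Of the 10 enzymes, 8 passed an adjusted p of 0.05 (edgeR's quasi-likelihood test) and were higher in mutants, and 0 were lower. Over all genes tested 33.9% were called, 17.5% higher and 16.4% lower. At an unadjusted p under 0.05 the same 8 enzymes passed, beside 44.2% of all genes, and 0 were lower with DESeq2 too. The 2 enzymes not called were *cat* and *sod2*. The 10 enzymes had a median log2 fold change of 0.48, against -0.01 for all genes tested. In CPM, 6 enzymes had no overlap between the groups and were higher in mutants, as were 20.3% of all genes tested, with 31.1% lower and 51.4% in either direction. In bulk RNA, more cells of a type and more RNA per cell cannot be told apart. Of the 8 calls, those of *gpx1a*, *prdx3*, *prdx2*, *gpx4a* and *gsr* held under all 14 alternatives, and those of *sod1*, *prdx1* and *prdx6* did not.

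**Figure D1:**
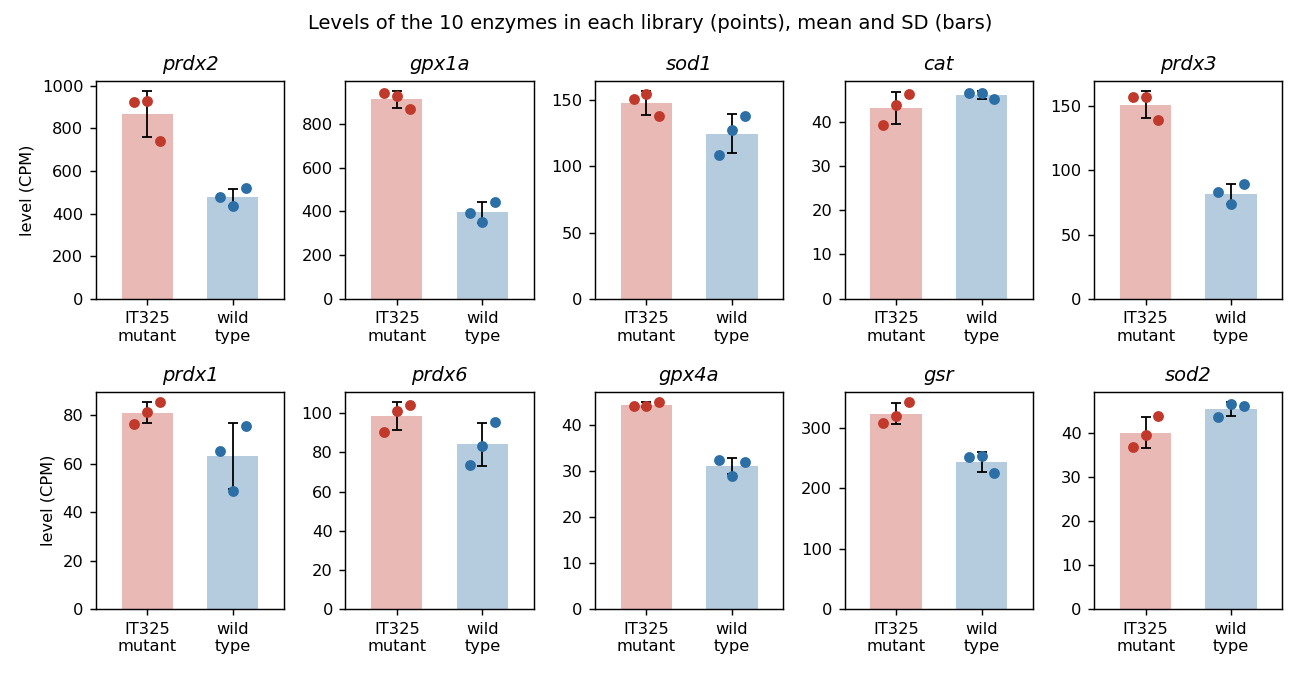
Level of each enzyme in CPM (y axis, from 0) in IT325 mutants and wild type: points are libraries, bars the mean of 3 and error bars the SD. For *gpx1a* the mutants lie at 870 to 940 CPM and the wild type at 350 to 445 CPM, while for *cat* the groups overlap, with mutants at 39.2 to 46.3 CPM and wild type at 45.0 to 46.5 CPM.

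The red cell enzymes did not change alike. *Gpx1a* (ENSDARG00000018146), a selenium-containing peroxidase of the cytosol that uses glutathione, was at 940, 927 and 870 CPM in mutants, against 394, 350 and 445 CPM in wild type. Every mutant library lay far above every wild-type one. The mean was 912 ± 37.0 CPM for mutants and 396 ± 47.4 CPM for wild type (SD, 3 libraries each). The test also scales each library by a factor, 0.919, 0.980 and 0.997 in mutants and 1.02, 1.05 and 1.04 in wild type. With these factors, and so not as the ratio of the CPM means, the change was 2.48-fold or 1.31 on the log2 scale (SE 0.103, adjusted p 4.29e-05 by edgeR). *Prdx2*, a cytosolic peroxiredoxin that uses thioredoxin, was at 925, 930 and 742 CPM in mutants, against 475, 435 and 518 CPM in wild type. Mutant replicate 3 was the lowest of the mutants and still above all wild-type libraries. The mean of *prdx2* was 866 ± 107 CPM for mutants and 476 ± 41.4 CPM for wild type (SD, 3 libraries each). With the same factors the change was 1.96-fold or 0.97 on the log2 scale (SE 0.121, adjusted p 5.74e-04 by edgeR).

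*Sod1* (ENSDARG00000043848), the copper-zinc dismutase of the cytosol, was at 151, 155 and 138 CPM in mutants, against 109, 128 and 138 CPM in wild type. In CPM the lowest mutant and the highest wild-type library met, at 137.9 and 138.04 CPM. With the trimmed mean of M values (TMM) factors that the test uses, the groups no longer overlapped, at 138 to 164 scaled CPM in mutants and 106 to 133 in wild type. The log2 change was 0.35 (SE 0.102, adjusted p 0.028 by edgeR). The call was lost under 6 of the alternatives: without scaling factors (0.24), with the replicate number as a block (0.35), and without mutant replicate 1 (0.31), mutant replicate 2 (0.33), wild type replicate 1 (0.27) or wild type replicate 2 (0.36).

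*Cat* (ENSDARG00000104702), the haem enzyme that splits hydrogen peroxide in peroxisomes and, in mammals, in red cells, was at 39.2, 43.7 and 46.3 CPM in mutants, against 46.4, 46.5 and 45.0 CPM in wild type. In CPM, mutant replicates 1 and 2 lay below all wild-type libraries, and mutant replicate 3 lay within their range. With the TMM factors *cat* was at 42.6, 44.6 and 46.5 scaled CPM in mutants, against 45.4, 44.3 and 43.4 in wild type. On that scale only mutant replicate 1 lay below all wild-type libraries, and mutant replicate 3 lay above them. The log2 fold change was 0.01, with a 95% interval from -0.16 to 0.17 and an edgeR adjusted p of 0.951. A rise of *cat* of the size found for *gpx1a* or *prdx2* lies outside this interval. Its sign depends on scaling and on single libraries, with -0.02 under upper-quartile scaling, -0.09 without scaling factors, -0.02 without mutant replicate 3 and -0.01 without wild type replicate 3.

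Among the general enzymes *prdx3* (ENSDARG00000032102), the thioredoxin-dependent peroxiredoxin of mitochondria, rose. It was at 157, 157 and 139 CPM in mutants, against 82.7, 73.5 and 89.0 CPM in wild type. The groups lay far apart, and the log2 change was 0.99 (SE 0.104, adjusted p 1.91e-04 by edgeR), beside 0.97 for *prdx2*. *Sod2* (ENSDARG00000042644), the manganese dismutase of mitochondria, was at 36.9, 39.5 and 43.8 CPM in mutants, against 43.7, 46.7 and 46.1 CPM in wild type. These ranges touched, and the log2 fold change was -0.08, with a 95% interval from -0.25 to 0.09 and an edgeR adjusted p of 0.43. The mitochondrial pair parted, and per count of *sod2* there were 4.25, 3.98 and 3.17 counts of *prdx3* in mutants, against 1.89, 1.58 and 1.93 in wild type. A ratio within a library does not depend on scaling. This pair was chosen after its values were seen, and the ratio was not tested.

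*Gpx4a* (ENSDARG00000068478), a selenium enzyme that reduces lipid peroxides in membranes, was at 44.0, 44.1 and 44.9 CPM in mutants, against 32.2, 28.9 and 31.9 CPM in wild type. The mutants were close to each other and all above the wild type, with a log2 change of 0.62 (SE 0.0824, adjusted p 6.76e-04 by edgeR). *Gsr* (ENSDARG00000019236), glutathione reductase, was at 308, 318 and 342 CPM in mutants, against 252, 253 and 225 CPM in wild type. It too had no overlap, with a log2 change of 0.51 (SE 0.0742, adjusted p 0.00107 by edgeR). Counts of *gpx1a* per count of *gsr*, a pair also chosen after its values were seen, were 3.05, 2.91 and 2.54 in mutants. In wild type they were 1.56, 1.38 and 1.98, and no test was run.

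The remaining peroxiredoxins had small changes. *Prdx1* (ENSDARG00000058734), the cytosolic relative of *prdx2*, was at 76.5, 81.3 and 85.3 CPM in mutants, against 65.2, 48.8 and 75.6 CPM in wild type. The lowest mutant library was just above the highest wild-type one, and the wild-type libraries were widely spread. The log2 change of *prdx1* was 0.46 (SE 0.148, adjusted p 0.0461 by edgeR), and the call was lost under 7 alternatives: upper-quartile scaling (0.43), no scaling factors (0.36), no filter (0.46), and the fits without mutant replicate 1 (0.47), 2 (0.47) or 3 (0.45) or wild type replicate 1 (0.49). Without wild type replicate 2, the lowest library, the value was 0.30, and it was 0.61 when wild type replicate 3 was left out. *Prdx6* (ENSDARG00000043511), a peroxiredoxin that reduces phospholipid peroxides and uses glutathione, was at 90.4, 101 and 104 CPM in mutants, against 73.4, 83.2 and 95.4 CPM in wild type. In CPM, mutant replicate 1 was below wild type replicate 3. With the TMM factors the groups did not overlap, at 98.3 to 104 scaled CPM in mutants and 71.8 to 91.8 in wild type. The log2 change of *prdx6* was 0.33 (SE 0.0951, adjusted p 0.0272 by edgeR). Its call was lost under 5 alternatives: no scaling factors (0.23), and without mutant replicate 2 (0.32) or 3 (0.32) or wild type replicate 1 (0.25) or 2 (0.32).

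**Figure D2:**
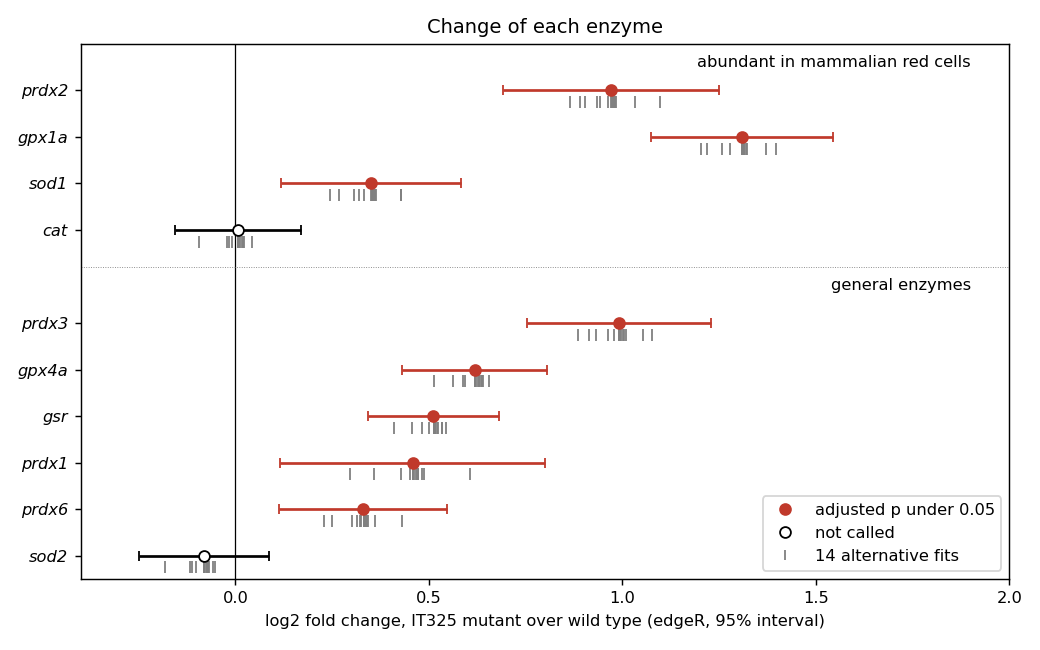
Log2 fold change of each enzyme, IT325 mutant over wild type (x axis), with the 95% interval from edgeR. Filled points passed an adjusted p of 0.05, open points did not, and grey ticks are the 14 alternative fits. Red cell enzymes (upper rows) run from *gpx1a* at 1.31 to *cat* at 0.01, and general enzymes from *prdx3* at 0.99 to *sod2* at -0.08.

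Changes overlapped between the red cell and the general enzymes. Of the 4 red cell enzymes 3 were called higher and their median log2 fold change was 0.66. Of the 6 general enzymes 5 were called higher and their median was 0.48. Each group held 1 enzyme near 0 and at least 1 near a log2 fold change of 1. In summed CPM, mutants over wild type, the red cell enzymes were at 1.89-fold and the general enzymes at 1.34-fold. The red cell enzymes took 74.3%, 73.5% and 70.3% of the counts of the 10 enzymes in mutants, against 65.1%, 64.2% and 67.1% in wild type. The difference between red cell and general enzymes was not tested. Most of the added counts came from a pair of genes. Summed over the 10 enzymes the level was 2768, 2797 and 2555 CPM in mutants, against 1573, 1493 and 1708 CPM in wild type. Of this net difference of 1115 CPM, *gpx1a* contributed 46.3% and *prdx2* 35.0%. These 2 genes took 67.4%, 66.4% and 63.1% of the counts of the 10 enzymes in mutants, against 55.2%, 52.6% and 56.4% in wild type. A gene's counts grow with the length of its transcript, so these shares describe counts and not molecules.

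Ratios between relatives were taken within each library, for pairs chosen after their values were seen and with no test. Per count of *gpx4a* there were 21.4, 21.01 and 19.4 counts of *gpx1a* in mutants, against 12.2, 12.1 and 13.9 in wild type, with no overlap. Per count of *prdx1* there were 12.1, 11.4 and 8.70 counts of *prdx2* in mutants, against 7.29, 8.92 and 6.84 in wild type. Here the groups overlapped, since mutant replicate 3 was below wild type replicate 2. Counts of *sod1* per count of *sod2* were 4.09, 3.92 and 3.15 in mutants, against 2.49, 2.74 and 3.00 in wild type, and did not overlap. *Prdx1* and *prdx2* are similar in sequence, and reads that fit both genes equally well may be missing from either count.

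**Figure D3:**
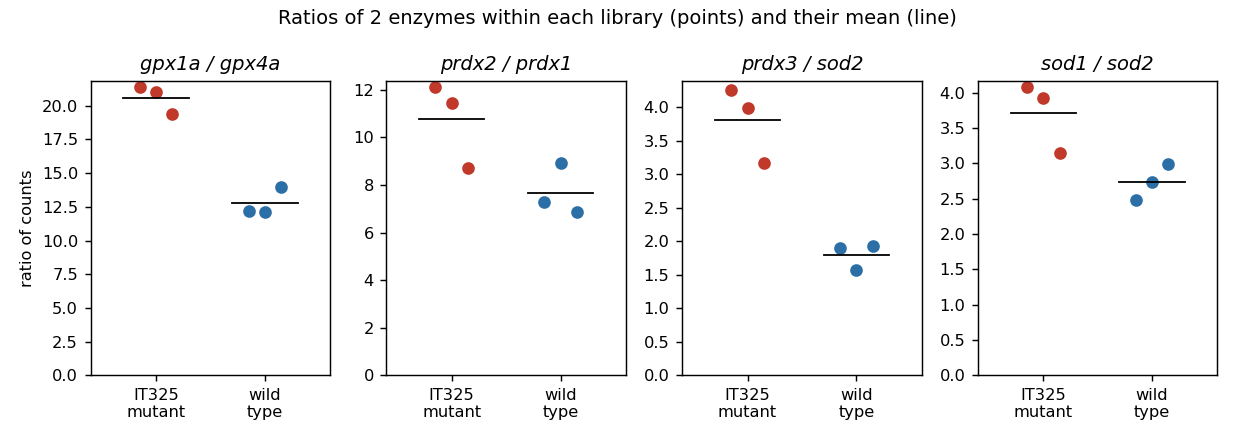
Ratio of the counts of 2 enzymes within each library (y axis, from 0) in IT325 mutants and wild type. Points are libraries and lines the mean of 3. The groups lie apart for *gpx1a* over *gpx4a*, *prdx3* over *sod2* and *sod1* over *sod2*, and overlap for *prdx2* over *prdx1*.

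Markers of red cells were also higher in mutants. All 17 erythroid genes tested were called higher in mutants, with a median log2 fold change of 1.73 and a range from 1.20 to 2.64. Among them *alas2*, which starts haem synthesis in red cells, rose by 1.92, *slc4a1a*, the anion exchanger of the red cell membrane, by 1.55, and the transcription factors *tal1* and *gata1a* by 1.64 and 1.57 on the log2 scale. Both genes named *hbaa1*, for alpha globin, rose by 1.77 and 1.67, although reads of such near-identical copies are uncertain. Of the 3 embryonic globin genes of the list, *hbae1.1* and *hbae3* had a count of 0 in all libraries and *hbbe3* had at most 6 counts, and these also have close copies. The globin counts lay in *hbaa1* and *hbba1*, which the paper lists as markers of mature red cells in adult kidney marrow. The paper also names *hbaa1* among the erythroid genes that were higher in its mutant larvae, so it does not treat this gene as limited to adults. Globins of the list summed to 49631, 38261 and 35653 CPM in mutants, against 11931, 10610 and 17397 CPM in wild type. The labels give 5 days, but with the embryonic globins of the list at or near 0 the age behind the libraries is uncertain as well and was not tested. The log2 fold change of *gpx1a* lay inside the erythroid range and those of the other 9 enzymes below it. The part of red cells in the enzyme levels was not tested.

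The levels were also expressed per 100 CPM of the summed erythroid markers. Left without the globins, these 14 markers summed to 14099, 12593 and 10709 CPM in mutants, against 3846, 3252 and 4633 CPM in wild type. *Gpx1a* was at 6.66, 7.36 and 8.12 per 100 in mutants, against 10.2, 10.76 and 9.60 in wild type. *Prdx2* was at 6.56, 7.39 and 6.93 per 100 in mutants, against 12.4, 13.4 and 11.2 in wild type. All libraries of both genes were lower in mutants than in wild type. *Sod1* was at 1.07, 1.23 and 1.29 per 100 in mutants, against 2.83, 3.93 and 2.98 in wild type. *Cat* was at 0.278, 0.347 and 0.432 per 100 in mutants, against 1.21, 1.43 and 0.972 in wild type. So measured, all 10 enzymes were lower in mutants without overlap, given here as values with no test. The same held for 85.5% of all genes tested, and the summed markers were 3.19-fold higher in mutants.

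Within a group the enzymes did not all follow the erythroid markers. *Gpx1a*, *prdx2* and *prdx3* were lowest in mutant replicate 3 and in wild type replicate 2, the libraries with the lowest erythroid sum of their group. In CPM the 6 genes *cat*, *prdx6*, *sod2*, *prdx1*, *gpx4a* and *gsr* were instead lowest in mutant replicate 1, which had the highest erythroid sum of the mutants, and highest in mutant replicate 3, which had the lowest. On the TMM scale this order held for 3 of them, *cat*, *prdx6* and *sod2*. On that scale *gpx4a* turned to lowest in mutant replicate 3 and highest in mutant replicate 1, as were *gpx1a*, *prdx2*, *prdx3* and *sod1*. *Prdx1* and *gsr* were lowest in mutant replicate 2 and highest in mutant replicate 3. In wild type *gpx4a* and *prdx1* were lowest in replicate 2, *sod1* in replicate 1 and *gsr* in replicate 3. There *cat*, *prdx6* and *sod2* shared no order. *Prdx1*, *sod1* and *prdx6* were highest in wild type replicate 3, the library with the highest erythroid sum of its group. The neutrophil sum ran the other way in mutants, at 37656, 41200 and 43153 CPM, and its part in these levels was not tested. The 9 neutrophil genes, 5 of them called higher and 1 lower, had a median log2 fold change of 0.49, and 12 macrophage genes, with 2 higher and 3 lower, one of 0.04. Several of the macrophage genes share the symbol MFAP4, and none of those was called. Of the rest, *marco* (1.24) and *csf1ra* (0.64) were called higher and *mpeg1.1* (-2.15), *cd74a* (-0.65) and *cd74b* (-0.47) lower, while *spi1b* (-0.02) was not called. All 8 T cell genes were called lower.

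A list of 37 other genes of thiol and glutathione metabolism was set beside the 10 enzymes, and names in capitals are those of the reference list of symbols. Of the 33 tested, 11 were higher and 2 lower, beside 17.5% and 16.4% of all genes tested, and 20 were not called. Their median log2 fold change was 0.31. Without scaling factors 5 were called higher and without wild type replicate 1 there were 6. The lower calls numbered 0 with the replicate block and without mutant replicate 2 or wild type replicate 2, and 1 without the filter and without mutant replicate 3 or wild type replicate 1 or 3. Of the other peroxiredoxins, *prdx5*, found in mitochondria, peroxisomes and cytosol, was at 427, 473 and 450 CPM in mutants, against 321, 283 and 332 CPM in wild type, a log2 fold change of 0.63 (edgeR adjusted p 6.03e-04). PRDX4, the peroxiredoxin of the endoplasmic reticulum, changed by 0.29 with overlapping groups, and its edgeR adjusted p of 0.0238 became 0.0838 without mutant replicate 2, 0.092 or 0.0661 when wild type replicate 1 or 2 was left out, and 0.14 without scaling factors, with a range of 0.0159 to 0.14 over the 14 alternatives.

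Most further glutathione peroxidases were low. *Gpx1b*, the second copy of glutathione peroxidase 1, was at 1.36, 0.417 and 0.469 CPM in mutants, against 1.26, 3.66 and 1.84 CPM in wild type. The groups overlapped, and the log2 fold change of -1.43 had an edgeR adjusted p of 0.0935. It passed without mutant replicate 1 (-2.26, adjusted p 0.0179) and with DESeq2 (adjusted p 0.033), within a range of 0.0179 to 0.29 over the 14 alternatives. Without wild type replicate 2, its highest library, the value was -0.91 (adjusted p 0.29). A second gene with the symbol GPX4 was at 90.6 ± 11.04 CPM for mutants and 84.5 ± 12.1 CPM for wild type (SD, 3 libraries each). Its log2 fold change was 0.20 (edgeR adjusted p 0.211), or 0.32 without wild type replicate 3, where it passed at 0.043, within a range of 0.043 to 0.57 over the 14 alternatives. It was 0.11 without wild type replicate 2 (adjusted p 0.513) and 0.10 without scaling factors (adjusted p 0.57). GPX7 and GPX8 stayed under 1 CPM in all libraries, at -0.32 and 0.50 on the log2 scale, and turned to 0.06 and -0.10 without mutant replicate 3. The secreted enzymes were as rare: *gpx3* had at most 5 counts and extracellular superoxide dismutase (SOD3) had a count of 0 for 1 of its genes and 1 to 13 counts for the other. *Gpx9* had a count of 0 in all libraries.

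Enzymes that supply the peroxidases with reduced thioredoxin or NADPH had smaller values than *gpx1a*, a difference that was not tested. *Txnrd1*, thioredoxin reductase, was at 222, 213 and 247 CPM in mutants, against 170, 157 and 171 CPM in wild type. The groups did not overlap, and the log2 fold change was 0.55 (edgeR adjusted p 0.00101). *Pgd* of the pentose phosphate pathway and ME1, malic enzyme, both of which make NADPH, changed by 0.41 and 0.53 (edgeR adjusted p 0.00418 and 0.00348). *Glrx5*, a mitochondrial glutaredoxin that serves iron-sulphur cluster assembly and is needed for haem synthesis in zebrafish red cells, rose by 1.22 (edgeR adjusted p 8.82e-05). The 2 genes called lower were GGCT, of glutathione breakdown, at -0.34, and *tkt* (ENSDARG00000006019), transketolase, at -0.24. A second transketolase gene, TKT (ENSDARG00000029689), named after its values were seen, was at 0.925, 0.761 and 0.727 CPM in mutants, against 0.267, 0.272 and 0.488 CPM in wild type. Its groups did not overlap, and its log2 fold change of 1.32 had an edgeR adjusted p of 0.0503. GGCT lost its call in all 6 fits that left out 1 library, at -0.37 to -0.30, and under 3 other alternatives, and *tkt* lost it without mutant replicate 2 (-0.22) or wild type replicate 2 (-0.23) and with the replicate block (-0.24).

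**Figure D4:**
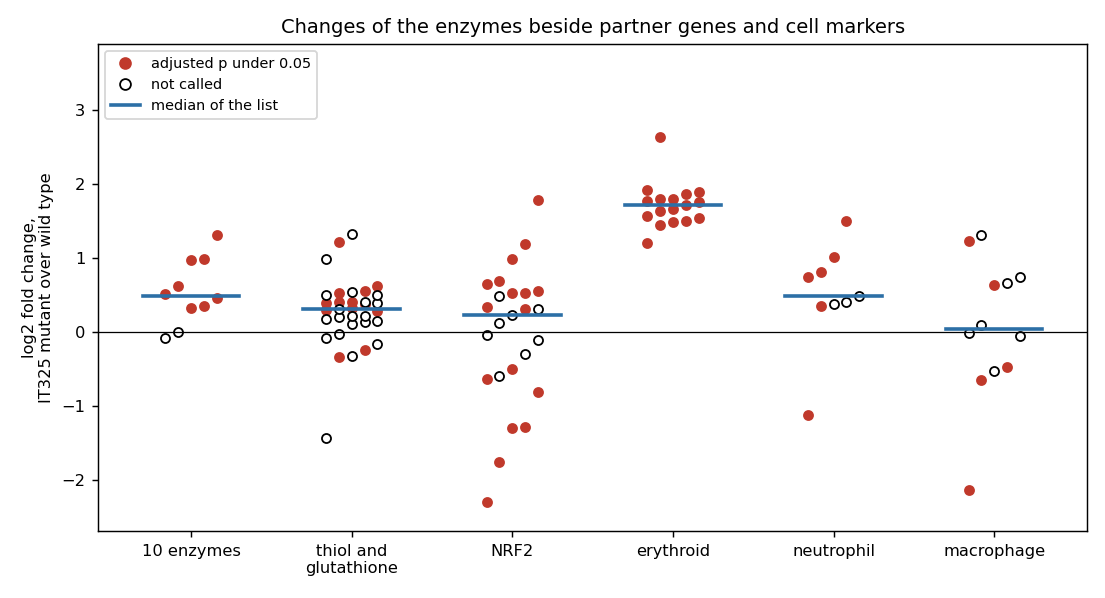
Log2 fold change, IT325 mutant over wild type (y axis), of the tested genes of 6 lists (x axis): points are genes, filled where the adjusted p was under 0.05, and the horizontal lines are medians. The 10 enzymes have a median of 0.48, thiol and glutathione genes 0.31, NRF2 genes 0.23, erythroid genes 1.73, neutrophil genes 0.49 and macrophage genes 0.04. Called macrophage genes lie on both sides of 0.

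Many antioxidant genes answer to the transcription factor NRF2, which KEAP1 holds inactive until oxidants release it and which BACH proteins oppose. Of 25 regulators and targets tested, 10 were called higher and 7 lower, beside 17.5% and 16.4% of all genes tested. Their median log2 fold change was 0.23. The gene of NRF2 itself, *nfe2l2a*, was at 171, 164 and 182 CPM in mutants, against 156, 143 and 150 CPM in wild type. It rose by 0.31 (edgeR adjusted p 0.0162), a call lost without scaling factors (0.20) and on leaving out wild type replicate 2 (0.26). Its copy *nfe2l2b* was at 0.477 ± 0.262 CPM for mutants and 0.788 ± 0.474 CPM for wild type (SD, 3 libraries each), at -0.60 on the log2 scale, or 0.02 without wild type replicate 3. Both genes of its inhibitor rose, *keap1a* by 0.56 and KEAP1 by 0.33 (edgeR adjusted p 0.0012 and 0.0151), and the call of KEAP1 was lost without scaling factors (0.23).

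The targets and partners of this list moved in both directions. By the naming rule, the genes described among those that rose are *blvrb*, which reduces biliverdin, at 1.79, *fth1a*, a ferritin chain that stores iron, at 1.20, *nfe2*, an erythroid relative of NRF2, at 0.99, and HMOX1, which degrades haem, at 0.69. HMOX1 was at 41.2, 31.7 and 28.5 CPM in mutants, against 23.3, 21.6 and 22.9 CPM in wild type. These 4 genes act in haem and iron handling or in red cells, and their edgeR adjusted p-values were 0.00498, 8.79e-05, 1.65e-04 and 0.0117. Among those that fell are *bach2b*, a repressor of the BACH family known from lymphocytes, at -1.76, *ugt1a1*, which conjugates bilirubin, at -1.30, MAFK, a small MAF partner, at -1.29, and SESN1, a sestrin, at -0.81. The other BACH genes did not fall. *Bach1a* and BACH1 were called higher, both at 0.52 (edgeR adjusted p 0.00134 and 0.0276), and *bach2a*, at 0.23, was not called. Of the other sestrin genes, *sesn3* was called higher at 0.65 (edgeR adjusted p 0.00534) and *sesn2*, at 0.12, was not called. Also called lower were *abcc2* at -2.30, with a mean of only 3.13 CPM, MAFG (ENSDARG00000100097) at -0.64 and SQSTM1 at -0.50. Like the BACH genes, these were named after their values were seen. MAFK lost its call without wild type replicate 1 (-1.11). SESN1 lost its call without the filter (-0.81), and without mutant replicate 1 (-0.72), 2 (-0.88) or 3 (-0.83) or wild type replicate 1 (-0.88), and its value was -0.54 without wild type replicate 2, the library with its highest level. *Nqo1* and *gstp1.1*, widely used readouts of NRF2, were too low to test. *Nqo1* had 10, 5 and 14 counts in mutants, against 2, 0 and 0 counts in wild type, and *gstp1.1* had 4 counts in mutant replicate 1 and 0 in the other libraries. Both were named after their values were seen.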

How the data were processed

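The deposited table holds raw counts per Ensembl gene, with no scaling. Per the paper's methods and the labels, the authors aligned paired-end reads with STAR 2.5.2b-1 to an Ensembl Zv10.85 reference and counted them with featureCounts 1.6.0.1 at default settings. The paper names a stranded library kit. Beyond the default, no strand setting for the counting is given in the sources used here, so overlapping genes are uncertain. Names came from the study's gene names or else a symbol list, which together named 81.8% of the genes, and no positions were used. Members, lists and groupings were chosen with earlier results of these data known.

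Libraries were grouped by their titles. Under R 4.3.3, edgeR 4.0.16 kept genes by filterByExpr (minimum count 10), scaled by TMM and fitted a robust quasi-likelihood model without covariate. Two-sided p-values received Benjamini-Hochberg adjustment across all genes tested (threshold 0.05). Fold changes are mutant over wild type with a prior count of 0.125, and standard errors come from the F statistic. CPM are counts over column totals, and floors of 3 counts cover counting error only. Genes of lists are named by a rule: relatives of the enzymes, NRF2, KEAP1, and up to 4 called genes per direction with at least 5 CPM and no overlap. The alternatives were other scalings and filters, DESeq2 1.42.0, a replicate block and leaving out 1 library. The fits were checked on simulated data.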

Additional observations from a re-analysis of the deposited data

How the results depend on the processing

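The count of enzymes called higher, 8, was 5 without scaling factors, 7 with upper-quartile scaling, without the filter and with the replicate block, and 8 with the other scalings, the mean filter and DESeq2. It was 5 to 8 in the fits without 1 library, 5 of them without mutant replicate 2 or wild type replicate 1, and 0 enzymes were called lower in any fit. The genes called, 6039 in all, numbered 5370 to 6444 under the other settings and 4587 to 5978 without 1 library. Without scaling factors the median of all genes was -0.11 and 39.4% of the calls were higher in mutants, against 51.7% with TMM; values without factors carry that shift. *Cat* (-0.0168 to 0.044 without 1 library) reversed to -0.0227 (upper quartile), -0.0946 (no factors), -0.0168 (without mutant replicate 3) and -0.0099 (without wild type replicate 3). Genes of low level reversed without 1 library, GPX7 to 0.0567 (range -0.699 to 0.0567), GPX8 to -0.103 (range -0.103 to 1.13) and *nfe2l2b* to 0.0199 (range -1.15 to 0.0199). The cause of these shifts was not tested. Libraries of the same replicate number deviated together with correlations of 0.0559, 0.122 and 0.0939, of which only 1 was over 0.1, so the numbers were not taken as pairs. Mutant replicates 2 and 3 correlated best with their own number, and mutant replicate 1 about equally with wild type replicates 1 (0.0559) and 3 (0.056). With the replicate block 5370 genes were called. With 3 libraries a group, *cat* and *sod2* changes inside their 95% intervals could not be seen.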
